A study of Homo sapiens with 2 samples.

Results

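CpG methylation was examined in 1281 CpG-rich windows that carried little methylation in the negative control, and in the genes they hold. Chromosomes 1 to 22 were cut into non-overlapping windows of 5 kb, counted from position 1. A window was taken when at least 100 of its CpGs had a read in both libraries and under 15% of its reads were methylated in the negative control. The level of a window was the summed count of methylated reads over the summed count of all reads at those CpGs. Of 531180 windows with a CpG read in both libraries, 15072 held at least 100 such CpGs, and 1281 of these had a level under 15% and are called low-methylated windows here. The other 13791 CpG-rich windows served as the background.

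The measurements came from whole-genome bisulfite sequencing (WGBS) of HEK293T, a human embryonic kidney cell line, with 1 library per group. Neg is the negative control, which the study describes as not transduced. dCas9+3A+HOXA5 cells had been transduced with lentiviral vectors for a nuclease-dead Cas9 that carries the SunTag peptide array, for an antibody fragment fused to DNMT3A1 that binds this array, and for a guide RNA against HOXA5. The study describes sorting of fluorescent transduced cells, culture for 30 days and a second sort. The labels give 30 days after infection for both groups, although Neg is described as not transduced. Sorting of the Neg cells is not described in the study's text. The groups thus differ in all of the vectors and possibly in handling, which cannot be told apart here. Both are bulk cultures of a single cell line. The sample titles alone separate the groups, since the labels attach the same treatment text to both.

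In mammalian genomes most CpGs are methylated, while CpG islands, which often hold gene starts, are kept free of methylation. Wide stretches of low methylation, called valleys or canyons, are known around genes of development such as the HOX genes, where Polycomb proteins often sit. HOX genes encode homeobox transcription factors that set position along the body axis and lie in the clusters HOXA, HOXB, HOXC and HOXD. DNMT3A is a de novo methyltransferase, which adds methyl groups to CpGs that had none.

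On chromosomes 1 to 22 the Neg library held 86000851 reads summed over CpGs, a mean of 3.81 per listed CpG, and the dCas9+3A+HOXA5 library 44834966, a mean of 2.9. In total 14111071 CpGs were read in both. Each library has its own list of CpGs, with 22577702 for Neg against 15475692 for dCas9+3A+HOXA5. Over these differing lists, 64% of reads were methylated in Neg against 70.3% in dCas9+3A+HOXA5, which does not compare the same CpGs. At the shared CpGs of the 15072 CpG-rich windows, summed reads gave 57.8% for Neg against 60.4% for dCas9+3A+HOXA5. Low-methylated windows held a median of 500 reads in Neg against 385 in dCas9+3A+HOXA5. There was no replicate of either library, so no difference can be set against the spread between replicates and no p-value is given. The intervals printed are 95% Wilson intervals for a level and 95% Newcombe intervals for a difference. They cover counting error only, and reads or CpGs on the same DNA fragment are not independent.

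Most of the windows were not broad valleys. They formed 1241 runs of adjacent windows, of which 1212 were a single window and 25 a pair. Only 69 windows (5.39%) lay in runs of 2 or more. Of 2318 neighbouring 5-kb windows with at least 10 CpGs, 1892 had a Neg level of 50% or more, with a median of 75.5%. Within the windows, 6638 of 9369 tiles of 500 bp with at least 3 CpGs (70.9%) were under 15% in Neg, whereas 1614 (17.2%) were above 50%. All tested tiles were under 15% in 180 windows, and 861 windows held at least 1 tile above 50%. The typical low-methylated window was therefore a short unmethylated stretch with methylated DNA at its side, and its level mixes both.

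Sequences are shown for the guide and for a 200-base stretch of 4 windows, so that the CpGs behind the values can be seen. The guide is given first, with its protospacer on the plus strand at chr7:27182884-27182903 (GRCh37) and the PAM in capitals.
HOXA5 guide: ggctgtcgctgccgggcgagGGG
The stretches hold no annotated exon and are, in each window, the ones with the most CpGs read in both libraries. CpGs are in capitals, and all are written on the plus strand of GRCh37. The windows of HOXB2 and HOXA10 had the largest gains, that of GLI2 the largest outside the HOX clusters, and that of HOXA13 stayed low inside the cluster that holds the guide.
HOXB2, chr17:46621272-46621471: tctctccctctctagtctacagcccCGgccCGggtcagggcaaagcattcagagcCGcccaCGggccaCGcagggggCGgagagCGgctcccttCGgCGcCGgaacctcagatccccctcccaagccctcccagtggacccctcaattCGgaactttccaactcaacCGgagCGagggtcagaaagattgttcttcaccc
HOXA10, chr7:27215277-27215476: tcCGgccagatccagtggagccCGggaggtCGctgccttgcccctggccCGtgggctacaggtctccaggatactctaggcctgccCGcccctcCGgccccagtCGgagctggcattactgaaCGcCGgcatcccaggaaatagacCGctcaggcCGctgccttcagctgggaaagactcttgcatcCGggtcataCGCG
GLI2, chr2:121499321-121499520: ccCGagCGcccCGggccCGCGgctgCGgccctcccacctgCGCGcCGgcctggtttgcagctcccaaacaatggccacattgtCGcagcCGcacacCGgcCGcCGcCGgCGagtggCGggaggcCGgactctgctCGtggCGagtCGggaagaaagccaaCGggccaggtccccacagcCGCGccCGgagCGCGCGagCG
HOXA13, chr7:27239798-27239997: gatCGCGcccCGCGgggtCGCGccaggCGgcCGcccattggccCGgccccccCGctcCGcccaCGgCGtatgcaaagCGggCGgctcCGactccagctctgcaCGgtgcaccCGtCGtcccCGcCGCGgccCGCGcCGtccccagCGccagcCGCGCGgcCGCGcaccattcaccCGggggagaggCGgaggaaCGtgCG
The HOXB2 stretch holds 13 CpGs, and at the 12 that were read in both libraries 0 of 33 reads were methylated in Neg (a count of 0 allows up to 9.09%) against 25 of 26 (96.2%) in dCas9+3A+HOXA5. The HOXA10 stretch holds 14 CpGs with 0 of 50 methylated reads in Neg (up to 6.0%) and 38 of 38 in dCas9+3A+HOXA5. In the GLI2 stretch 29 CpGs had 1 of 165 methylated reads in Neg against 54 of 99 (54.5%) in dCas9+3A+HOXA5. The HOXA13 stretch is the densest of them with 35 CpGs, of which 24 were read, and it had 0 of 92 methylated reads in Neg (up to 3.26%) and 2 of 81 (2.47%) in dCas9+3A+HOXA5. Of these stretches, that of HOXA13 stayed near 0, that of GLI2 reached a middle level, and those of HOXB2 and HOXA10 became almost fully methylated.

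The comparison of dCas9+3A+HOXA5 with Neg asks whether the methylome of the treated cells differed away from the target of the guide, here in regions that started with little methylation. Over the 1281 low-methylated windows the median level was 8.38% in Neg against 10.3% in dCas9+3A+HOXA5, and the median change was 2.03 percentage points (quartiles -0.213 and 5.41). It was 0.370 points when each CpG needed 5 reads per library, the minimum in the study's methods, and 0.181 points when windows were chosen by the dCas9+3A+HOXA5 level instead of the Neg level. The level was higher in 933 windows. The 5th and 95th percentiles of the change were -3.63 and 13.8 points, and the full range ran from -11.0 to 83.1 points. Because the rule took windows for a low level in Neg, part of a rise is built into the choice, and the rise is a description. In the other CpG-rich windows, where the choice works the other way, the median change was 1.63 points.

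A window was called gained when it rose by more than 20 points, the size that the study set for CpG islands, and the interval of the difference lay above 0. By this rule 27 low-methylated windows (2.11%) gained, against 1.14% of all CpG-rich windows, and 145 of the other 13791 (1.05%). Of these others, 5534 had 80% or more in Neg and could not rise by more than 20 points, so the shares are not on equal terms. The 27 became 43 and 81 with at least 3 and 5 reads per CpG, and 17 with each CpG counted once. A window under 15% in Neg cannot fall by 20 points, whereas 126 of the other windows did (0.836% of all). A rise of any size with an interval above 0 was found in 447 windows (34.9%, against 29.1% of all CpG-rich windows and 28.6% of the others), and a fall in 72 (5.62%, against 13.4 and 14.1%). The gained share did not follow the Neg level within the low-methylated windows: 7 of 357 gained below 5%, 12 of 416 from 5 to 10% and 8 of 508 from 10 to 15%. From 10 to 15%, just below the limit of the level, the gained share was 1.57% and the median change 2.24 points, and from 15 to 30%, just above it, they were 2.96% and 1.99 points. Windows with a level under 15% but 50 to 99 CpGs gained in 2.64% and had a median change of 2.28 points, close to the windows with 100 to 149 CpGs (2.51% and 2.25 points). LMNB1, CIPC and DAP3 lay just inside the limit of the level (14.99 to 14.993% in Neg, changes of 8.43, 5.68 and 2.41 points), and ARRDC4, a window of chromosome 9 (chr9:99775001-99780000) and TUT7 just outside (15 to 15.013%, changes of 1.56, 7.98 and 6.14 points). The 23 windows with exactly 100 CpGs had a median change of 3.01 points and the 38 with 99 CpGs one of 2.66 points.

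**Figure D1:**
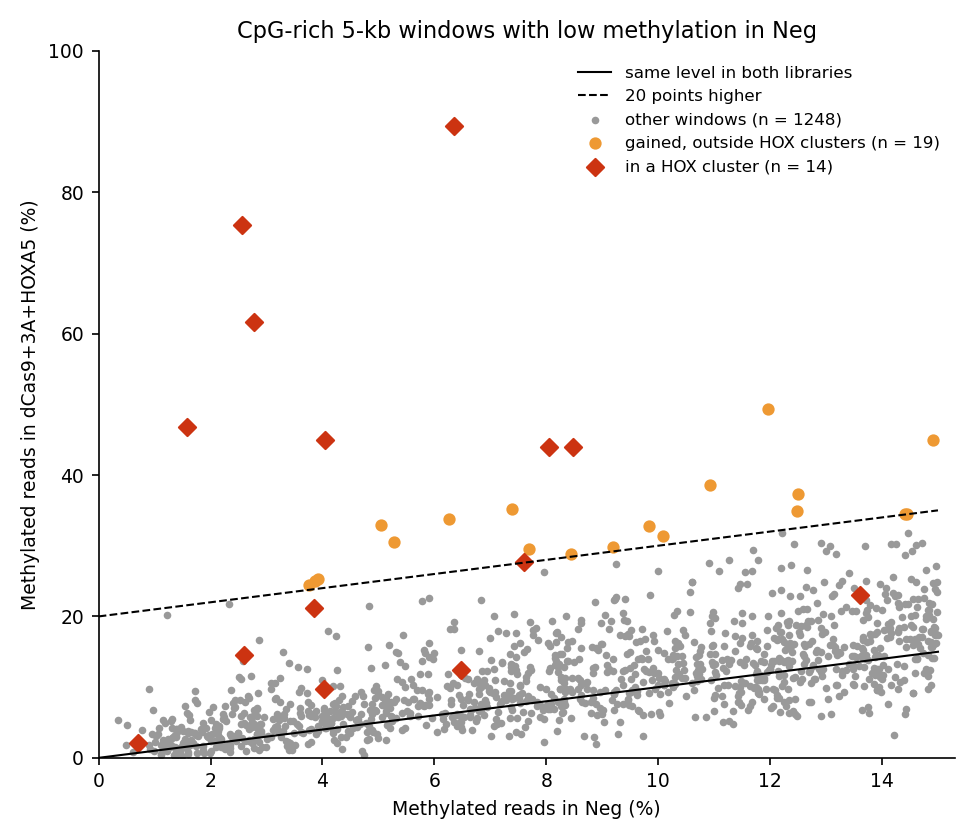
Level of each of the 1281 low-methylated windows in Neg (x axis, percent of reads methylated) and in dCas9+3A+HOXA5 (y axis, percent), 1 point per window and 1 library per axis. Most points lie along the line of equal level, 27 lie more than 20 points above it, and 8 of the 14 windows in HOX clusters (diamonds) are among these.

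The largest gains were in the HOX clusters. Between the first and the last gene of the 4 clusters lay 49 CpG-rich windows, of which 14 were low-methylated, and 8 of these 14 gained (57.1%). The median change was 27.8 points, and the interval lay above 0 in 13 of 14. Outside the clusters 19 of 1267 windows gained (1.5%), with a median change of 1.99 points. The 5 largest gains of all low-methylated windows were in the HOXA and HOXB clusters.

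In the HOXA cluster 7 windows were low-methylated and 4 gained. The window that holds the guide and the start of HOXA5 rose from 33 of 815 methylated reads in Neg (4.05%, 2.9 to 5.63%) to 388 of 864 in dCas9+3A+HOXA5 (44.9%, 41.6 to 48.2%), and 10 of its 10 tiles gained. The adjoining window, which covers the body of HOXA6 and part of HOXA3 and whose centre lies 4.62 kb from the guide, rose further, from 2.78% (11 of 396 reads) to 61.6% (191 of 310). On summed reads the guide window was therefore not the most methylated window of its own cluster. With each CpG counted once it reached 51.0% in dCas9+3A+HOXA5, against 61.5% in the adjoining window. Within 500 bp of the HOXA5 start, 108 of 380 reads were methylated in dCas9+3A+HOXA5, against 3 of 177 in Neg. The median depth ratio of dCas9+3A+HOXA5 to Neg over low-methylated windows was 0.753. The part of depth in this level was not tested. The study's amplicon sequencing gave a higher level at this locus.

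The window of HOXA10, centred 34.6 kb from the guide, rose from 2.56% (11 of 430 reads) to 75.4% (236 of 313), a gain of 72.8 points (67.4 to 77.4). The windows next to that of HOXA10 changed less. That of HOXA9 rose from 2.61% (13 of 499) to 14.6% (70 of 481) and that of HOXA11 from 4.03% (22 of 546) to 9.73% (65 of 668), and the intervals of both differences lay above 0. The window of HOXA13, the most posterior gene, had 0.711% in Neg (3 of 422) and 2.16% in dCas9+3A+HOXA5 (10 of 462), and the interval of its difference held 0 (-0.224 to 3.29 points). Gains in this cluster did not decline with distance from the guide in order.

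On chromosomes 1 to 22 the guide matched exactly, with an NGG PAM, at 1 place only, so the other clusters carry no such site. The window of HOXB2 had the largest gain of all low-methylated windows, from 6.36% in Neg (38 of 598 reads, 4.66 to 8.6%) to 89.4% in dCas9+3A+HOXA5 (389 of 435, 86.2 to 92.0%), and 8 of its 9 tiles gained. In the same cluster HOXB8 rose from 7.61% (34 of 447) to 27.7% (130 of 470), just over the threshold of the call, and HOXB9 rose from 6.47% (44 of 680) to 12.5% (48 of 385). A further HOXB window with no gene start rose from 13.6% (94 of 691) to 23.1% (77 of 334). Both low-methylated windows of the HOXC cluster gained, that of HOXC11 from 8.48% (59 of 696) to 44% (173 of 393), and that overlapping HOXC9 and HOXC6 from 8.04% (37 of 460) to 44% (189 of 430). In the HOXD cluster the window of HOXD10 rose by 17.4 points (13.5 to 21.6), from 3.85% (25 of 649) to 21.3% (98 of 461), below the threshold. With each CpG counted once the change at HOXD10 was 29.8 points, above the threshold, and with at least 3 reads per CpG it was 5.37 points. The change at HOXA9 was 17.8 and 3.09 points in the same order, that at HOXB9 11.0 and 1.20, and that at HOXA11 11.8 and 4.49. All 14 windows were higher in dCas9+3A+HOXA5, and only those of HOXA13 and HOXA11 stayed under 10%.

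**Figure D2:**
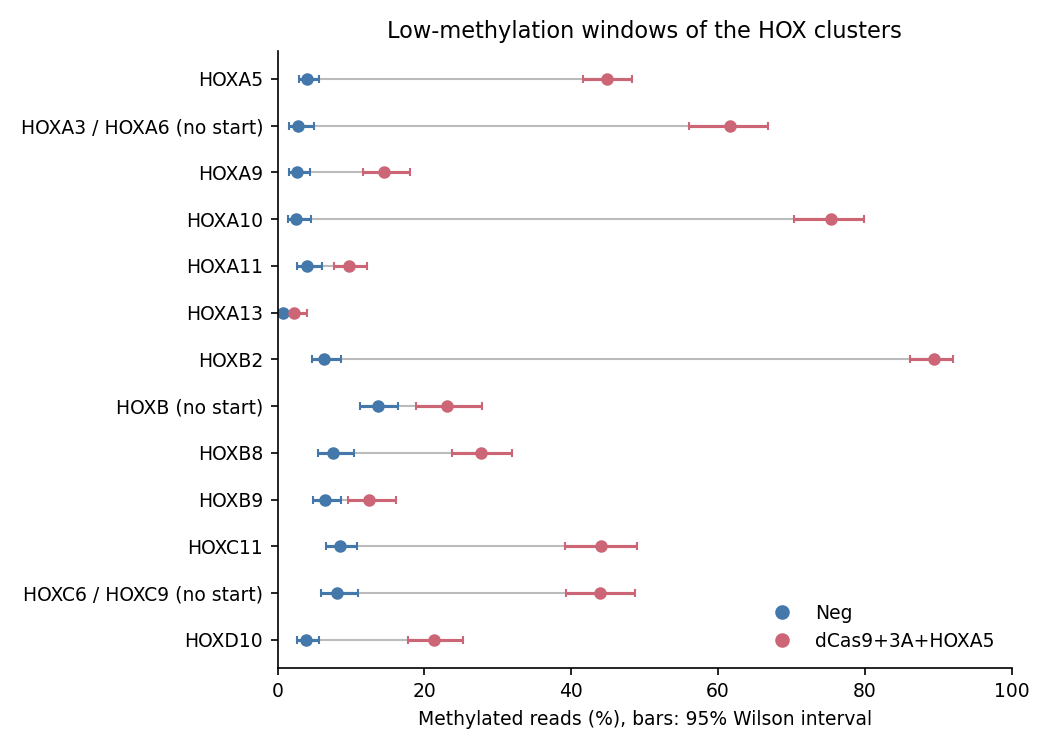
Percent of reads methylated (x axis) in Neg and dCas9+3A+HOXA5 for 13 low-methylated windows of the HOX clusters, 1 row per window named by the HOX gene that starts in it or, where none does, by the genes it overlaps. Bars are 95% Wilson intervals; the dCas9+3A+HOXA5 levels run from 2.16% at HOXA13 to 89.4% at HOXB2, and the Neg levels stay under 15%.

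The level of a window did not always hold at the gene start in it. Within 500 bp of the start, HOXA9 rose from 4.0% (2 of 50 reads) to 92.6% (25 of 27), although its window as a whole rose by 11.9 points. Part of this stretch lies past the window's edge, in the window of HOXA10. HOXD10 likewise rose from 1.43% (1 of 70) to 46.2% (30 of 65) at its start. The start of HOXA10, in contrast, rose by 17.8 points, less than the 72.8 points of its window, and that of HOXA5 by 26.7 points, less than its 40.9. The HOXA10 stretch reaches into the window of HOXA11, whereas those of HOXA5 and HOXD10 lie inside their windows. At the start of HOXB8, whose window gained, 1 of 41 reads was methylated in Neg and 0 of 26 in dCas9+3A+HOXA5 (Wilson intervals up to 12.6 and 12.9%). HOXB2 and HOXC11 rose by 85.1 and 52.7 points at the start and gained over the window as well. Among the named stretches wholly inside their windows, the change at the start was thus larger than that of the window at HOXD10 and HOXC11 (52.7 against 35.5 points). At HOXB2 it was slightly larger (85.1 against 83.1 points). It was smaller at HOXA5 and HOXB8.

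The 19 gained windows outside the HOX clusters held genes of varied roles. GLI2, a transcription factor of Hedgehog signalling, gained in its body from 12% (56 of 468 reads, 9.33 to 15.2%) to 49.3% (141 of 286, 43.6 to 55.1%). MEIS1, whose protein binds DNA together with HOX proteins, rose from 6.27% (24 of 383) to 33.8% (106 of 314) in a window 139417 bp from the gene start. NR2F2, the orphan nuclear receptor COUP-TFII, rose from 3.87% (21 of 543) to 24.9% (117 of 469), and the long non-coding RNA PANTR1 beside the neural factor gene POU3F3 from 14.4% (70 of 486) to 34.5% (118 of 342). The NR2F2 window lay 5834 bp from the gene start. With at least 3 reads per CpG the change at PANTR1 was 5.37 points, below the threshold, and with each CpG counted once it was 24.96 points.

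PDGFA, a ligand of the platelet-derived growth factor receptors, rose from 10.9% (67 of 613) to 38.6% (177 of 458), and KSR1, a scaffold of the RAF and MEK kinases, from 14.9% (62 of 416) to 44.9% (145 of 323). The window of the let-7b host transcript MIRLET7BHG and LINC02939 rose from 5.05% (50 of 990) to 32.9% (260 of 791), with 6 of its 10 tiles gained. Smaller gains, of 20.1 to 24.7 points, were found at ADD3 and MACF1 (cytoskeletal proteins), WDR82 (a subunit of histone H3K4 methyltransferase complexes), ADAMTS19 (a secreted protease), DDX6 (an RNA helicase), GPT2 (a mitochondrial transaminase), CNPY1, TPTEP2-CSNK1E, the pseudogene SLC7A5P1 and the non-coding RNA gene ENSG00000273348. The windows of ADD3, MACF1 and CNPY1 lay 8875, 23013 and 43145 bp from the gene start. That of WDR82 overlapped the gene but held no start of a coding gene. Just under the threshold lay LGR4, a receptor of R-spondins, at 19.5 points and OSBPL1A, an oxysterol-binding protein, at 18.3. These values form a continuous series with those just called, so the number 27 marks a size and not a separate class.

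For a number of these genes the weighting of CpGs set the size. In the KSR1 window the mean over CpGs, each counted once, rose by 9.51 points against 30.0 points on summed reads, and in that of MACF1 by 10.7 against 21.3. DDX6 changed by 15.02 points with at least 3 reads per CpG and by 11.2 with each CpG counted once, both below the threshold. With each CpG counted once, 6 others of the smaller gains also lay below it, at 17.0 points (ADD3), 14.3 (WDR82 and SLC7A5P1), 14.1 (ADAMTS19), 13.3 (GPT2) and 12.7 (TPTEP2-CSNK1E), and so did PDGFA at 19.8 and NR2F2 at 17.3. One gained window was unlike the rest: a window of chromosome 1 (chr1:565001-570000) that holds pseudogene copies of mitochondrial genes, among them MTND2P28 and MTCO1P12, rose from 7.38% (2989 of 40487 reads) to 35.2% (432 of 1226). Its mean depth was 332 reads per CpG in Neg against 10.0 in dCas9+3A+HOXA5, far above the median of 3.71 and 2.81 over the low-methylated windows. Reads of the mitochondrial genome and of these copies are nearly identical, and the treatment of reads with several places is unknown, since it was not given in the sources used here. Their part in this gain was not tested. With each CpG counted once this window rose by 16.96 points, below the threshold.

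**Figure D3:**
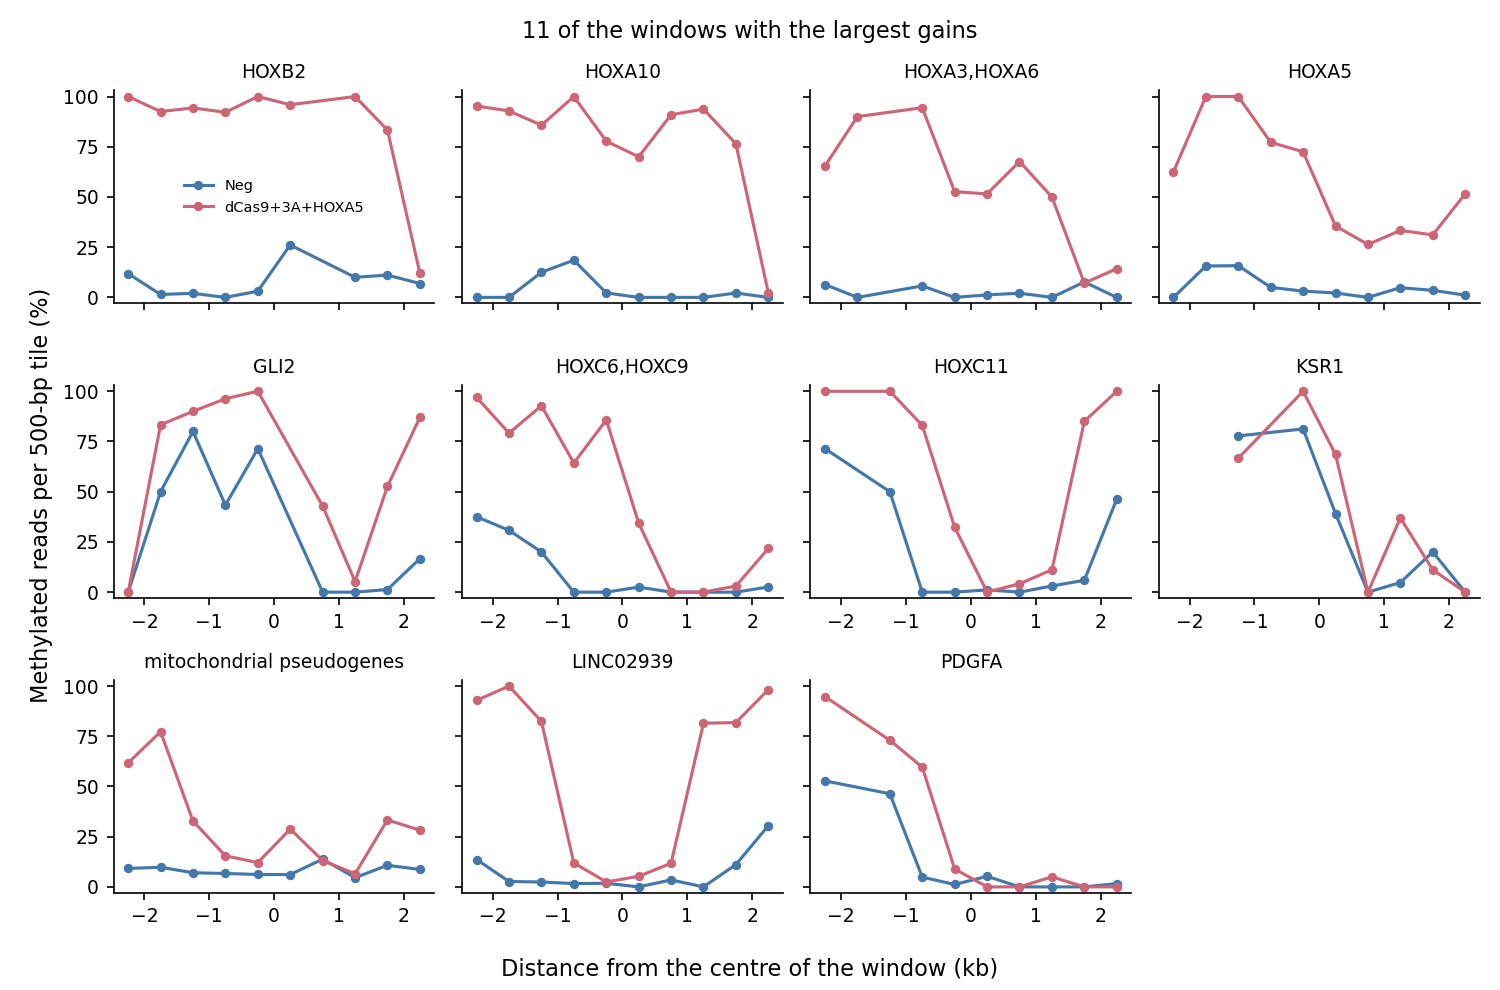
Percent of reads methylated per 500-bp tile (y axis) against distance from the centre of the window in kb (x axis), for Neg and dCas9+3A+HOXA5, in 11 of the windows with the largest gains; tiles with fewer than 3 CpGs are left out. At HOXB2 and HOXA10 nearly all tiles rose above 70%, and at HOXC11, LINC02939 and PDGFA 1 side or both sides rose while other tiles stayed near 0. At GLI2, KSR1, HOXC11 and PDGFA part of the window was already methylated in Neg.

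The genes in the windows were then grouped by lists. A protein-coding gene start lay in 1006 low-methylated windows (78.5%), against 34.3% of the other CpG-rich windows, and these starts belonged to 1211 genes. With any transcript of a coding gene counted, the shares were 93.3 and 57.5%. At least 2 coding starts lay in 188 windows (14.7%), against 5.05% elsewhere. The gained windows held fewer starts: 13 of 27 (48.1%), or 74.1% with any transcript of a coding gene counted. Of the windows with a coding start 13 of 1006 gained (1.29%), of those with only a long non-coding RNA start 6 of 81 (7.41%), and of those with neither 8 of 194 (4.12%). Over all low-methylated windows the share was 2.11%. These counts are small, and the difference between the groups was not tested. The median changes of these groups lay close together, at 1.99, 2.72 and 1.74 points.

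Of 26 CpG-rich windows with a HOX start, 11 (42.3%) were low-methylated, and 6 of the 11 gained, with a median change of 20.1 points and all 11 higher. The other lists of developmental genes had medians from 0.190 to 2.99 points. They held 7 to 14 windows each, too few to tell their gained counts from the 2.11% of all low-methylated windows that gained. Among 14 windows of other homeobox genes 1 gained, with a median change of 2.17 points and values of 10.3 points at EN2 and 8.78 at TGIF2. Among the 12 windows of forkhead, SOX and T-box genes 0 gained, with a median of 0.579 points and the highest values at FOXF1 (14.8 points) and FOXB1 (6.32), both forkhead factors. Among the 13 of zinc-finger and other lineage factors 0 gained, with a median of 1.21 points and the highest values at ZIC2 (13.8) and SP8 (13.1). With at least 3 reads per CpG these were 8.38 points at ZIC2 and 20.2 at SP8, the latter past 20 points. For the 7 windows of basic helix-loop-helix factors, which act in neurons and muscle, the median was 0.190 points, with HEY2 at 9.67 and HES1 at 0.190 points. The 12 windows of morphogens and their antagonists had a median of 2.99 points, with the ligand WNT5A at 11.9, the Wnt antagonist DKK1 at 6.67 and the receptor FZD4 at 5.34. With at least 3 reads per CpG the change was 4.76 points at EN2, 3.60 at DKK1, 19.7 at FOXF1 and 12.8 at FOXB1. In the same setting it was 14.6 at HEY2, 6.76 at HES1, 17.9 at WNT5A, 9.53 at FZD4 and 9.83 at TGIF2. Together the 5 lists of developmental genes without HOX held 58 windows with 1 gain (1.72%) and a median change of 1.81 points. Over all low-methylated windows these were 2.11% and 2.03 points.

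Genes used by every cell were counted next. Of 42 windows with starts of ribosomal, translation, proteasome, respiration or splicing genes 0 gained, where 2.11% of all low-methylated windows did (under 1 window in 42), and the median change was 1.60 points. It was 0.278 points over the 13 windows of ribosomal and translation genes and 1.71 over the 29 of proteasome, respiration and splicing genes. The highest value was at EIF4ENIF1 (16.0 points, 11.1 to 21.0), which encodes a transporter of the cap-binding protein eIF4E, followed by RPL10A, a ribosomal protein (7.35), and COX6B1, a subunit of cytochrome c oxidase (6.94). With each CpG counted once EIF4ENIF1 rose by 2.97 points only, and RPL10A turned direction, with a change of -1.94 points. In the 8 windows of histone genes, which held 15 of these genes, the median was 2.22 points, with H2AX at 6.89. The 8 windows of ion channels and neurotransmitter receptors had a median of 2.5 points, with KCNA1 at 7.73. No window of a clustered protocadherin gene was low-methylated. Among the 879 windows with coding starts in no list, 6 gained (0.683%), with a median of 1.94 points. The lists were drawn up with earlier results of these data known, in which HOX loci had already risen, so the HOX count is no independent support.

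**Figure D4:**
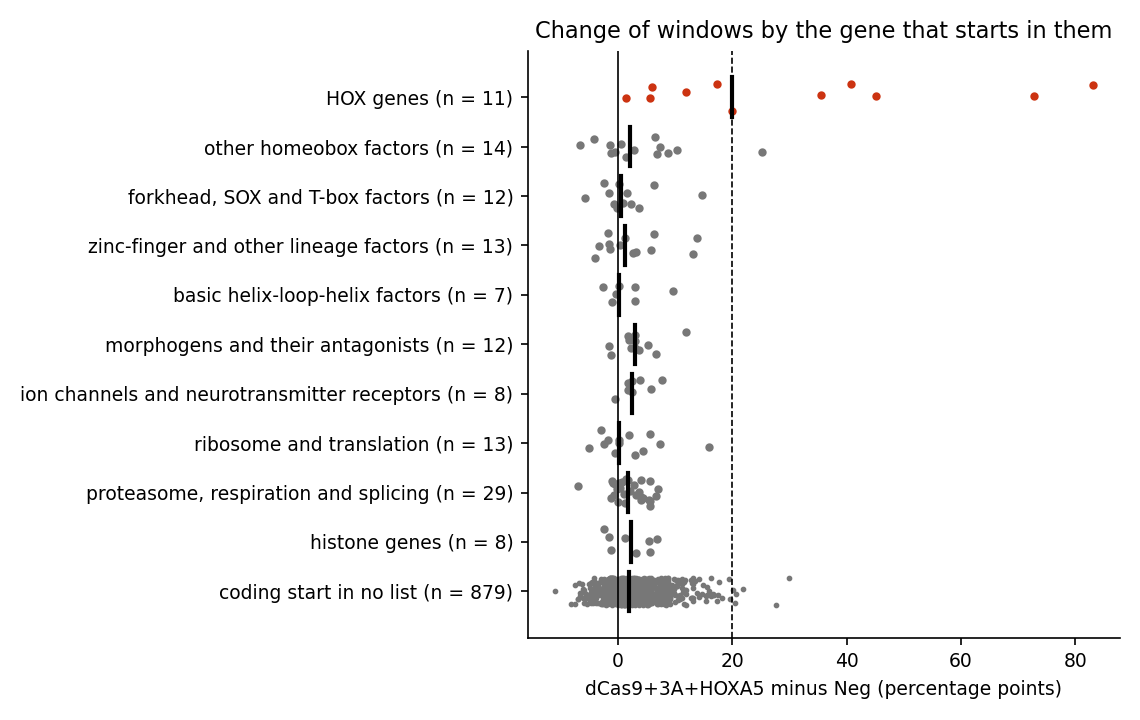
Change of each low-methylated window (x axis, dCas9+3A+HOXA5 minus Neg in percentage points), in rows by the list of the coding gene that starts in it, with the number of windows; bars are medians and the dashed line marks 20 points. HOX windows spread from 1.45 to 83.1 points around a median of 20.1, and the medians of the other lists lie between 0.190 and 2.99 points.

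Where in a window the change lay was followed next. Of 9369 tiles of 500 bp, 945 gained more than 20 points with an interval above 0 (10.1%), against 6.96% of the 134683 tiles of all CpG-rich windows. Falls of that size were found in 83 tiles (0.886%, against 3.43% of all), but 6638 of the 9369 tiles were under 15% in Neg and could not fall so far. Of these 6638 tiles 427 gained (6.43%), against 5.84% of such tiles in the other CpG-rich windows, and they made up 45.2% of the gained tiles. Among these, 124 of 2316 tiles with no methylated read gained (5.35%), 104 of 3359 above 0 and under 5% (3.10%) and 199 of 963 from 5 to 15% (20.7%). Tiles from 15 to 50% in Neg gained most often, in 345 of 1042 (33.1%, against 23.9% in the other CpG-rich windows), and those of 50% or more in 173 of 1689 (10.2%, against 5.01%). Tiles of 80% or more in Neg cannot rise by more than 20 points. Their number bears on the shares over all tiles and over those of 50% or more. In the 27 gained windows 114 of 225 tiles gained (50.7%), from 2 to 10 tiles a window. A high share there follows from the call of these windows, which used the same reads.

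Single CpGs were counted as well. Among CpGs with 3 or more reads per library and no methylated read in Neg, 92.7% of 48727 had no methylated read in dCas9+3A+HOXA5 either in windows that did not gain, and in 0.901% all reads were methylated. In the gained windows 47.8% of 839 such CpGs stayed without a methylated read and 18.1% had methylated reads only. The gained windows were called from these same reads, so this contrast follows from the call. With as few as 3 reads, neither shows the state of a single CpG.

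Around the coding starts of windows that did not gain, the change lay away from the start. Within 500 bp of 1178 starts, 1.97% of reads were methylated in Neg against 2.48% in dCas9+3A+HOXA5, and the median difference per start was 0.155 points. From 1 to 3 kb away the levels were 28 and 33.6%, with a median difference of 5.80 points, and 73.8% of 1188 starts were higher. From 5 to 10 kb away they were 75.5 and 80.8%, with a median difference of 5.56 points. Measured from the edge of these windows or runs, the levels of the outermost 500 bp inside were 17.2% in Neg against 20.9% in dCas9+3A+HOXA5, a rise of 3.74 points, and those of the first 500 bp outside were 39.0 and 44.2%, a rise of 5.27 points. From 2 to 2.5 kb inside the edge the rise was 2.80 points. At 8525 starts that were low in Neg but lay outside the low-methylated windows, the difference from 1 to 3 kb away had a median of 5.53 points. At 14 starts in gained windows, 2.69% of reads were methylated within 500 bp in Neg against 25.7% in dCas9+3A+HOXA5, and from 1 to 3 kb away 20.6 and 58.5%. A rise there follows in part from the call of these windows, which used the same reads.

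**Figure D5:**
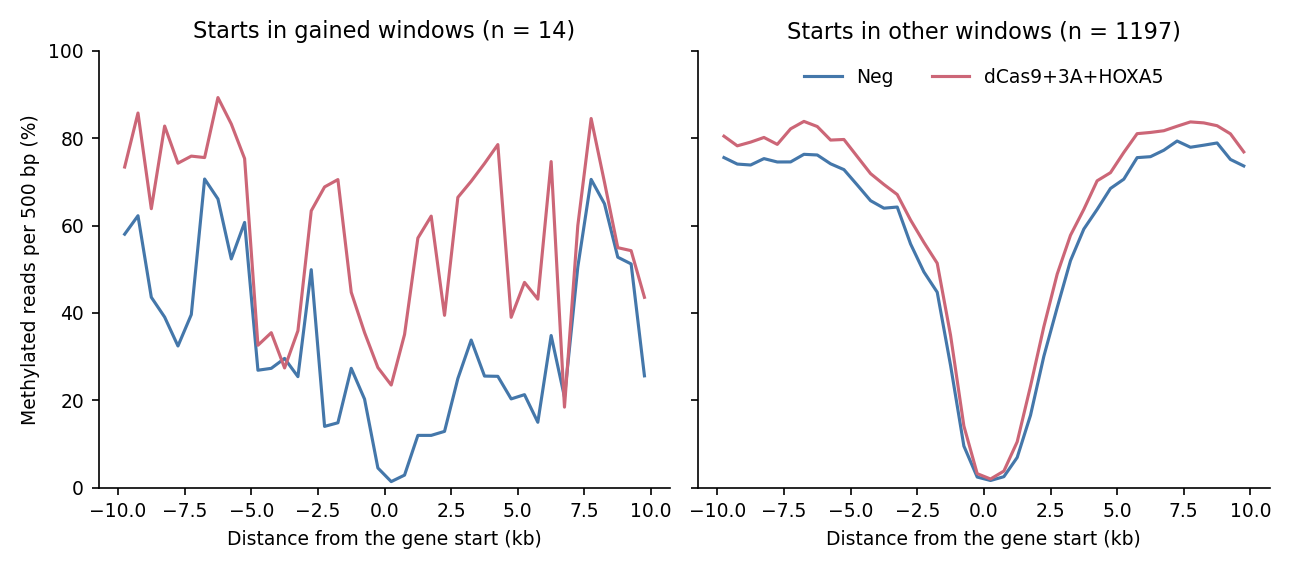
Percent of reads methylated per 500 bp (y axis) against distance from the gene start in kb along the direction of transcription (x axis), in Neg and dCas9+3A+HOXA5, for 14 coding starts in gained windows and 1197 in the other low-methylated windows. In the other windows both libraries drop to about the same low level at the start, 1.97 and 2.48% within 500 bp, while in the gained windows the dCas9+3A+HOXA5 line stays higher at the start and on both sides. The gained windows were called from the same reads.

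Gains were also counted at the starts themselves. Of 1192 with at least 10 CpGs within 500 bp, 16 gained more than 20 points (1.34%), against 3.59% of all 15061 coding starts tested and 1.20% of the 8973 starts outside these windows that were under 15% in Neg. Falls of that size were found at 2 of the 1192, and at 282 of all 15061 starts (1.87%), of which those under 20% in Neg cannot fall so far. Of the 16, 9 lay in windows that did not gain as a whole. Besides HOXA9 and HOXD10, these 9 comprised 7 others, named here after their values were seen. They were EYA4, a transcriptional coactivator, from 4.55% (9 of 198 reads) to 47.1% (40 of 85), and KIT, the receptor of stem cell factor, from 21.7% (20 of 92) to 63.8% (37 of 58). The start of BCR, a regulator of small GTPases, rose from 19.3% (27 of 140) to 62.9% (56 of 89), and that of CLDN6, a tight junction protein, from 7.48% (16 of 214) to 29.7% (35 of 118). NDUFAF3, an assembly factor of respiratory complex I and a member of the respiration list, rose from 6.52% (3 of 46) to 40.0% (14 of 35) at its start. FAM169A had 0 of 23 methylated reads in Neg (Wilson interval up to 14.3%) and 8 of 20 (40.0%) in dCas9+3A+HOXA5, and ZNF860, a zinc-finger gene, rose from 18.1% (44 of 243) to 41.2% (42 of 102). At PDGFA and DDX6, in contrast, the start differed by 0.226 and 0.786 points while the window gained. The 500 bp on each side of the PDGFA and CLDN6 starts reach past the edge of their windows.

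Few runs reached beyond 10 kb. The 4 longest held 3 to 6 windows, and 3 of them held no protein-coding start and did not gain. A run of 6 windows on chromosome 12 (chr12:34520001-34550000), which overlaps no annotated gene, had 11.6% in Neg against 9.85% in dCas9+3A+HOXA5. A pair of runs of 5 windows each on chromosome 16 (chr16:46385001-46410000 and chr16:46415001-46440000) had 11.2 and 12%, and 8.04 and 6.09%. Mean depth in 9 of these 10 windows was above 20 reads per CpG in Neg, and 246584 Neg reads lay in the first run. Whether depth plays a part in their levels was not tested. The remaining run was that of HOXA9, HOXA10 and HOXA11 (chr7:27210001-27225000), which rose from 3.12% (46 of 1475 reads) to 25.4% (371 of 1462). Windows in runs of 2 gained in 4 of 50 (8%) and single windows in 22 of 1212 (1.82%), and the median changes were 2.23 and 2.06 points. The 4 include the guide window at HOXA5 and the adjoining window at HOXA6, which form a single run.

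The rule left little room for falls, since a window under 15% cannot lose more. The largest fall was at SLCO5A1, a transporter of the organic anion family, from 14.2% in Neg to 3.21% in dCas9+3A+HOXA5, or -11.0 points (-15 to -7). The window of CDC45, a part of the replicative helicase, fell from 14.4 to 6.19% (-8.22 points, -11.8 to -4.60), and those of PIP4K2A, RAP1GDS1, HNRNPUL2, CTIF, BAG4 and PRC1 fell by 6.86 to 7.54 points. All of them had a coding start. With every CpG counted once, the fall at SLCO5A1 was -4.07 points and that at CDC45 -0.867 points, and PIP4K2A, RAP1GDS1, HNRNPUL2, BAG4 and PRC1 rose by 0.254 to 3.71 points instead. For these 5 of the 8 windows the direction of the change thus depended on how CpGs were weighted.

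The composition of the windows was compared with that of other CpG-rich windows. Low-methylated windows held a median of 212 CpGs in the reference, 132 of them read in both libraries, and had a GC share of 51.2% and a ratio of observed to expected CpGs of 0.660. The other CpG-rich windows had 173 CpGs, a GC share of 56.5% and a ratio of 0.450. Their depth was higher, with a median of 4.51 reads per CpG in Neg against 3.23 in dCas9+3A+HOXA5, against 3.71 and 2.81. Because CpGs had to be read in both libraries, 26606 windows with at least 100 CpGs in the reference had only 10 to 99 read, and 1573 of these were under 15% in Neg and are not among the 1281. Across the 1281 windows, the Spearman correlation of the change was -0.099 with the number of CpGs read, 0.032 with the Neg level, -0.018 with the GC share and -0.198 with the ratio of depth in dCas9+3A+HOXA5 to that in Neg. These describe windows of the same pair of libraries, which share depth and base composition.

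The change was spread over the genome. The median change was above 0 on each of the 22 chromosomes, from 0.888 points on chromosome 8 to 3.15 on chromosome 3, and gained windows lay on 14 of them. In the other CpG-rich windows it was also above 0 on all 22, from 0.437 to 2.93 points, and higher than in the low-methylated windows on 8. Windows that hold the last 10 bases of the guide before an NGG on either strand were 17 of the 1281 (1.33%), against 74 of all 15072 CpG-rich windows (0.491%). Of the 74, 3 gained, where 1.14% of all CpG-rich windows did. Of the 17, 1 gained, the window of the guide itself at HOXA5, where 2.11% of all low-methylated windows did. These counts are too few to set against those shares. The median change of the 17, with the guide window among them, was 3.64 points against 2.01 for the other low-methylated windows. None of the other 26 gained windows held these letters, which says nothing of other sites the guide may bind.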

How the data were processed

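WGBS libraries were prepared from 1 Neg and 1 dCas9+3A+HOXA5 sample with a TruSeq DNA methylation kit. After trimming, the authors used BSMAP 2.90 with hg19 for alignment and for the calls at CpGs. Treatment of duplicates and of multiply placed reads: not given in the sources used here. Each deposited file lists, for every CpG, a C count (methylated reads), a C or T count (all reads) and the same kind of count for G on the opposite strand. They also hold an estimated count per the file headers, the C or T count corrected for variants, and a methylation fraction made from it by the authors, which was not used as the level. The minimum in the study's methods was 5 reads, but CpGs with 1 read are listed and were used.

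Here, reads were summed over the CpGs read in both libraries in 5-kb windows (Python 3.11.15, numpy 2.4.6, pandas 2.3.3), so deeply read CpGs weigh more. A gain was a difference above 20 percentage points with a 95% Newcombe interval above 0, tested on simulated data. The simulation drew reads independently and put no spread between libraries, so it cannot show how often such spread alone gives a call. Each group holds 1 library, so no test between conditions was made. Gene positions came from GENCODE release 44 on GRCh37, which has the coordinates of hg19. The guide sequence came from the study's list of oligonucleotides. Opposite-strand reads were G in 99.1% (Neg) and 99.4% (dCas9+3A+HOXA5) of cases in the low-methylated windows. In the gained windows these shares were 99.3% (Neg) and 97.8% (dCas9+3A+HOXA5). Profiles around starts left out CpGs above 50 reads.

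Named windows were the 12 largest gains and 8 largest falls with at least 200 reads in each library, the 8 longest runs (those of 3 or more windows are described), all windows with a HOX start, the 3 largest gains and the window nearest the median of each other list (given in part), the guide window and the 3 windows on each side of a threshold. Remaining gained windows, and starts that gained outside gained windows, were named after their values were seen. The windows and the 11 gene lists were chosen with earlier results of these data known. Alternatives changed the read minimum, the weighting, the thresholds and the windows. Some windows that this rule names are not reported here by name or value, and they remain in the counts.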

Additional observations from a re-analysis of the deposited data

How the results depend on the processing

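No paired analysis was possible because the design has 1 library per group. Without replicates, and with a median of 2 to 3 reads per CpG, single CpGs cannot be placed and small differences between windows cannot be told from the spread between libraries. The count of gained HOX windows was 6 of 11 as reported. It was 2 of 4 with 150 or more CpGs, 3 of 3 with 10-kb windows that hold 200 CpGs, 10 of 20 with 2.5-kb windows that hold 50 CpGs, 3 of 5 without the HOXA cluster and 0 of 4 when windows were chosen by the dCas9+3A+HOXA5 level, a choice that leaves out windows that rose far.

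The number of windows (1281) became 773 with a Neg level under 10%, 404 with 150 or more CpGs, 2912 with 50 or more, 94 with 10-kb windows and 5900 with 2.5-kb windows. The median change (2.03 points) became 0.370 with at least 5 reads per CpG, 1.65 with 150 or more CpGs, 2.38 with 10-kb windows, 1.27 with 2.5-kb windows, 1.31 when windows were chosen on odd tiles of 500 bp and measured on even ones, and 0.181 when they were chosen by the dCas9+3A+HOXA5 level. The gained count (27) became 43 and 81 with at least 3 and 5 reads per CpG, where fewer CpGs remained per window, 17 with each CpG counted once, 5 with 150 or more CpGs, 70 with 50 or more, 3 and 128 with 10-kb and 2.5-kb windows, 64 on even tiles, 0 when chosen by the dCas9+3A+HOXA5 level, and 124 and 8 with thresholds of 10 and 30 points. Falls of any size (72) became 23 with at least 5 reads, 26 and 140 with Neg levels under 10% and 20%, 33 and 137 with 150 or more and 50 or more CpGs, 7 and 277 with 10-kb and 2.5-kb windows, 139 on even tiles and 208 when chosen by the dCas9+3A+HOXA5 level. All other values from these settings and from shifted windows, the estimated count, no CpG above 50 reads, all CpGs of the Neg file and no HOX cluster lay within 1.5 times of the reported counts and, for the median change, between 1.93 and 2.24 points. Leaving out the 13 windows above 20 reads per CpG, chosen after seeing the data, gave 26 gained windows.

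Of 91 named windows, 72 had an interval of the difference that left out 0, and 9 of the 72 changed sign with each CpG counted once. These were RPL10A (-1.94 points), PRC1 (3.71), BAG4 (0.962), HNRNPUL2 (2.99), RAP1GDS1 (0.254), PIP4K2A (1.95) and 3 windows of the chromosome 16 runs (-0.657, -0.732 and 0.345). With at least 3 reads per CpG, KLF10 (-5.82) and NEUROG2 (-0.337) among the 72 changed sign. Of the 19 windows whose interval held 0, 4 changed sign with each CpG counted once and 6 with at least 3 reads. Of the 27 gained windows, 25 stayed above 20 points with at least 3 reads per CpG, 14 with each CpG counted once and 27 with the estimated count. The cause of these shifts was not tested.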
